A study of Mus musculus with 25 samples.

Results

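The genes described here are 44 genes of the machinery that docks, primes and fuses synaptic vesicles. They were chosen by name as members of 15 protein families, and all 44 had a row among the 30903 gene symbols of the table. Their messenger RNA was measured in 25 single cells of the mouse hypothalamus, dissociated from its arcuate nucleus together with the median eminence. The cells carried RIP-Cre, a Cre recombinase under the rat insulin promoter, on the strain background (C57BL/6 x DBA)F2, and were picked by hand because they were labelled by a Cre-dependent virus (AAV-loxSTOPlox-GFP) with green fluorescent protein (GFP). They came from 1 pool of 2 adult males with an average age of 63 days, and no other cells were set against them, so they form 1 group and 1 sample. No test between groups was possible, no p-value is given, and the spread over cells is given beside each level. This spread holds differences among the cells of 1 pool as well as noise, and it is not an error over animals.

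Transmitter release begins when the vesicle protein synaptobrevin (VAMP) zips together with syntaxin and SNAP-25 on the plasma membrane into a SNARE complex. Synaptotagmins sense calcium, complexins hold and assist the assembled complex, Rab3, RIM and Munc13 proteins dock and prime the vesicle, and NSF with its SNAP adaptors takes used complexes apart. Most of these proteins exist as several paralogues that neurons use in different mixtures, and hypothalamic neurons use related sets for synaptic vesicles and for the dense-core vesicles that hold peptides.

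Levels are RPKM, that is, reads divided by the length of the gene in kilobases and brought to a common read total for every cell. Paralogues of different length were set side by side on this scale, so their order within a cell depends on the gene lengths used. Detection in a cell means a level of at least 10 RPKM. Estimated depth was 892600 to 2969600 reads per cell, with a median of 1831100, and 10 RPKM is 18.3 reads for a gene of 1 kb at that median. All 8 fixed neuronal markers were detected in most cells, and between 5 and 8 of them were found per cell. Their summed level was 729.7 to 1260 RPKM per cell. In contrast, none of the 5 astrocyte markers and neither of the 2 oligodendrocyte precursor markers was detected in any cell, and no cell held more than 2 of the 4 tanycyte markers, 2 of the 5 oligodendrocyte markers or 1 marker of microglia, endothelium, mural cells or pituitary. Aqp4, Gfap and Slc1a3 of astrocytes stayed below 10 RPKM throughout, and C1qa, C1qb and C1qc of microglia, Mog and Mobp of oligodendrocytes, Pdgfra of precursors, Cldn5 of endothelium and Rax of tanycytes were at 0 in all 25 cells. The highest summed levels of the non-neuronal lists in any cell were 97.6 RPKM (tanycytes), 96.4 RPKM (oligodendrocytes), 26.7 RPKM (endothelium), 25.5 RPKM (microglia), 20.7 RPKM (mural cells), 15.2 RPKM (pituitary) and 2.72 RPKM (astrocytes).

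Of the 44 genes, 42 were detected in at least 1 cell, 19 in at least 13 cells and 8 in all 25 cells. Over all 30903 symbols, the same rules called 42.7%, 13.5% and 2.60%. The 8 genes found in every cell were Snap25, Vamp2, Syt4, Syt5, Syt11, Syp, Rab3a and Napa, each at 25 of 25 cells (exact Clopper-Pearson 95% interval 86.3 to 100%). A further 8 genes were found in 22 to 24 cells, 17 genes in 4 to 21 cells and 9 in 1 to 3 cells. Syt2 and Syn3 reached 10 RPKM in no cell, which allows a share of up to 12% of such cells by a floor of 3 cells and up to 13.7% by the exact Clopper-Pearson interval, although Syt2 was listed above 0 in 2 cells and Syn3 in 14. The intervals and this floor treat the 25 cells as independent draws and cover no more than counting error among them. The cells were picked by hand from 1 pool of 2 mice. Reads without molecular identifiers are not independent molecules either, and neither measure covers this.

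A cell held a median of 23 of the 44 genes, with 20 in the poorest cells (among them cell 3) and 28 in cell 32. Of all 30903 symbols, a cell held a median of 4896, with 3843 in cell 43 and 6183 in cell 29. Of the 15 families, 7 had a detected member in every cell: the SNAP-25, VAMP, synaptotagmin, synaptophysin, synapsin and Rab3 families and the SNAP adaptors. Between 10 and 13 families were represented per cell, and 15 cells held 13. Tomosyn was without a detected gene in 20 cells, Munc13 in 16, Stx1a and Doc2 in 9 each, RIM in 7, complexin in 3 and SV2 and Nsf in 1 each. Together the 44 genes carried 0.644 to 0.944% of a cell's summed RPKM, with a median of 0.719%.

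**Figure D1:**
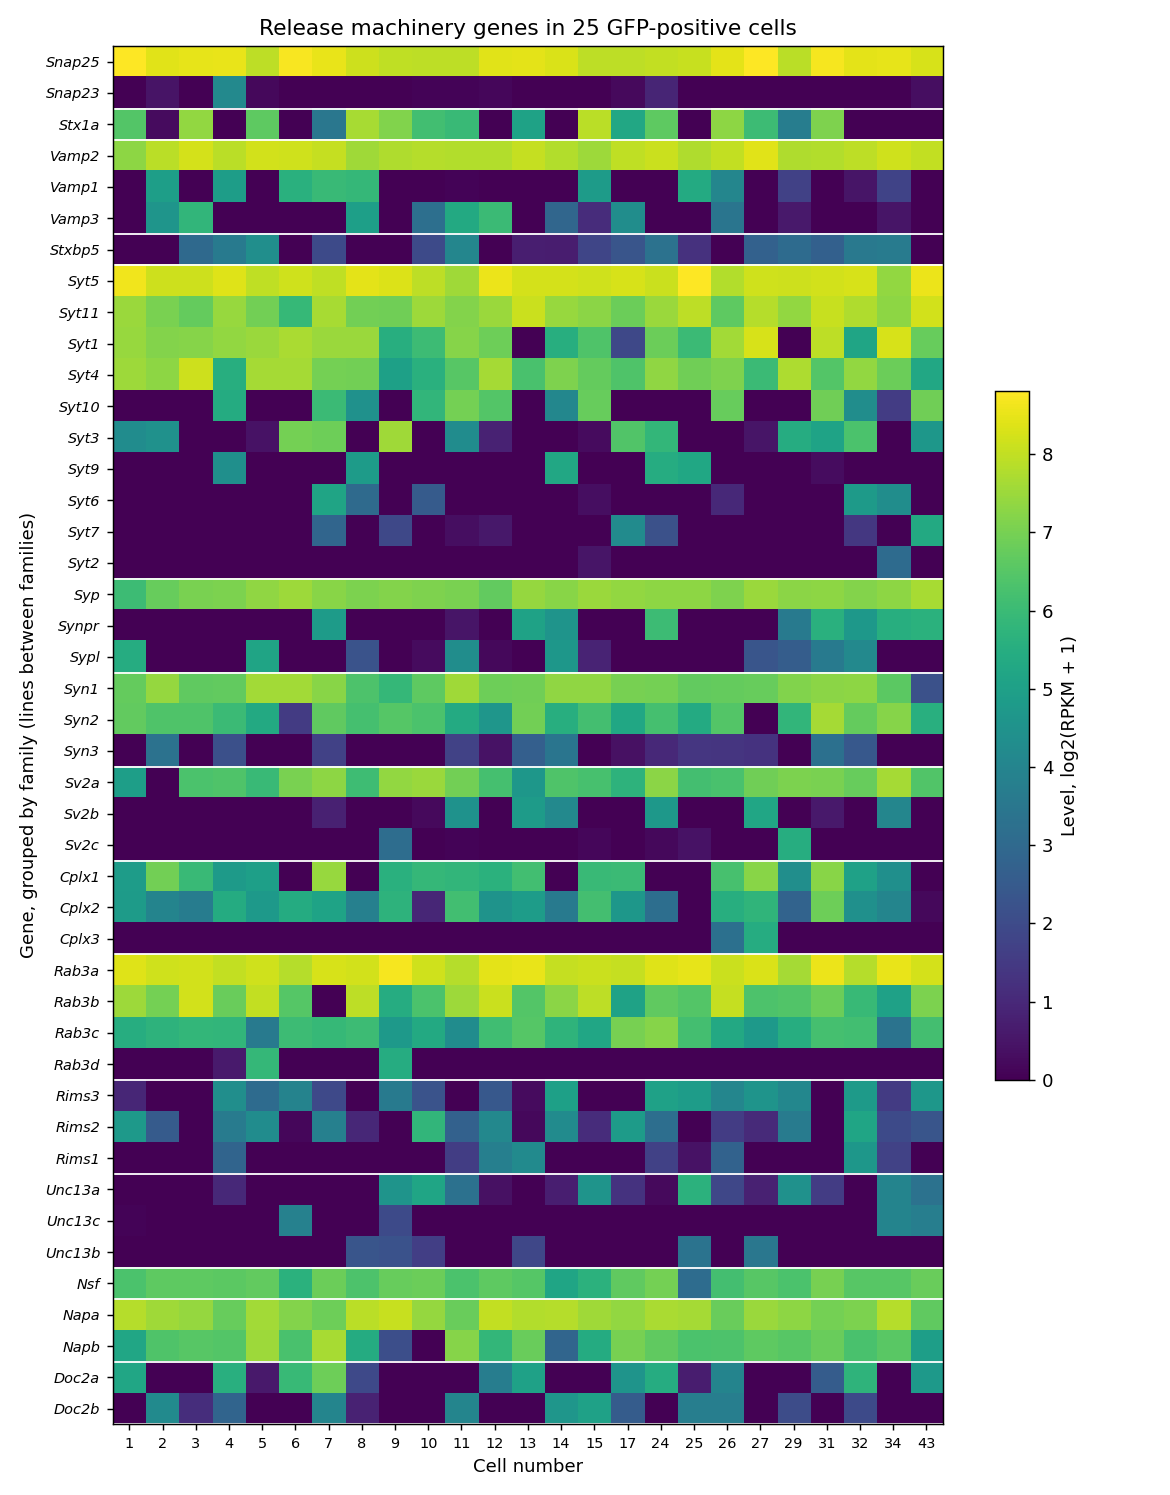
Level of the 44 genes (rows, grouped by family) in the 25 cells (columns, by cell number) as log2(RPKM + 1), with lighter colour for higher levels. Snap25, Vamp2, Syt5, Syp and Rab3a form even bands across all cells, while Stx1a, Syt3, Syt10, Cplx1 and Synpr are interrupted by cells at 0.

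Among the SNARE genes, Snap25 and Vamp2 were high in every cell, and Stx1a had the largest SD of log2(RPKM + 1) of all members. Snap25 encodes the plasma membrane SNARE with a pair of helices. It ranged from 240.5 RPKM in cell 29 to 449 RPKM in cell 27, with a median of 337 RPKM, and ranked 93 of all symbols by mean level. The gene lies on chromosome 2 from 136713453 to 136782428 (GRCm38, plus strand). Its more widely expressed paralogue Snap23 was detected in cell 4 alone, at 16.6 RPKM, and was at 0 in 16 cells. Snap25 therefore carried between 95.7 and 100% of the summed level of this pair. Vamp2, the main synaptobrevin of brain synapses, ranged from 157 RPKM in cell 1 to 340.1 RPKM in cell 27, around a median of 239 RPKM. It was the highest of the 3 listed VAMP genes in 25 of 25 cells.

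The other listed VAMP genes, Vamp1 and Vamp3, came and went from cell to cell. Vamp1, a synaptobrevin best known from motor and sensory circuits, was detected in 8 cells at 15.4 to 61.2 RPKM and was at 0 in 13 cells. Vamp3, also called cellubrevin and found in many tissues, was detected in 6 cells at 18.9 to 63.6 RPKM. Only cells 2 and 8 held both, and 12 of the 25 cells held at least 1 of them. Vamp2 carried a median of 96.5% of the summed level of Vamp1, Vamp2 and Vamp3, and its lowest share was 67.9% in cell 8. Outside these listed genes, Vamp4 was detected in 20 cells with a median of 32.3 RPKM, while Vamp8 was at 0 in all cells. Vamp4 was picked for mention after its values were seen.

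Stx1a, the syntaxin of the plasma membrane, was detected in 16 of 25 cells (64%, interval 42.5 to 82.0%). Its median was 37.9 RPKM, with 0 in 8 cells and 239.7 RPKM in cell 15. Cells 8, 3 and 26 followed at 202, 167 and 157 RPKM, while cell 2 had 0.21 RPKM. The SD of its log2(RPKM + 1) was 3.22, against 0.30 for Snap25 and 0.25 for Vamp2. Stxbp5 encodes tomosyn, which binds syntaxin and SNAP-25 in place of VAMP. It was listed above 0 in 17 cells but reached 10 RPKM in 5, topped by cell 5 at 19.4 RPKM. Its annotated exons span 16513 bases, and 10 RPKM corresponds to 302 reads at the median depth. Because RPKM is divided by length, this is the same level as 10 RPKM of a shorter gene.

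By RPKM, the synaptotagmins were led by Syt5, not by Syt1. Annotated exons span 2380 bases for Syt5 and 8338 for Syt1, and what length contributes to their order was not tested. Syt5 belongs to the calcium-binding branch of the family and has been placed on dense-core vesicles as well as at synapses. It ranged from 166 RPKM in cell 34 to 438 RPKM in cell 25, with a median of 289 RPKM. Syt1, the main fast calcium sensor of forebrain synapses, had a median of 143 RPKM, from 0 in cells 13 and 29 to 312 RPKM in cell 34. Syt5 was above Syt1 in 23 of 25 cells, and the exceptions were cells 27 and 34. The median log2 ratio of Syt5 to Syt1 within a cell was 1.17, with quartiles of 0.48 and 2.72.

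Syt4 and Syt11 are a related pair whose first calcium-binding domain carries a substitution that impairs calcium binding, and both were in all 25 cells. Syt11 had a median of 173 RPKM and a range of 58.5 (cell 6) to 295 RPKM (cell 43). Syt4, on chromosome 18 from 31437808 to 31447406 (GRCm38, minus strand), had a median of 121 RPKM and a range of 31.6 (cell 9) to 278 RPKM (cell 3). Syt11 was above Syt4 in 17 cells and Syt4 above Syt11 in 8. The log2 ratio of Syt5 to Syt11 had a median of 0.85 (quartiles 0.37 and 1.11) and that of Syt5 to Syt4 a median of 1.08 (quartiles 0.75 and 1.91), so that Syt5 led both in 25 of 25 cells. Syt5 carried a median of 38.2% of the summed level of the 10 synaptotagmins, with 21.3% in cell 34 and 50.9% at most. All of Syt1, Syt4, Syt5 and Syt11 were detected together in 22 cells.

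Further synaptotagmins differed from cell to cell. A cell held between 3 and 7 of the 10 genes, with a median of 5. Outside these 10, Syt13 was detected in 21 cells (median 78.6 RPKM), Syt17 in 13 and Syt16 in 10. By contrast, Syt12 was detected in 4 cells, Syt14 in 2 and Syt15 in 0. These genes were picked for mention after their values were seen. Syt10, which takes part in calcium-dependent secretion of IGF-1 in olfactory neurons of the mouse, was detected in 12 cells at 15.8 to 124 RPKM and was at 0 in another 12. Its 6 highest cells were cells 11, 43, 31, 15, 26 and 12, at 124, 119, 119, 109, 108 and 87.2 RPKM. Syt3, a calcium-binding synaptotagmin with high calcium affinity, was also detected in 12 cells, from 18.3 RPKM in cell 11 to 187 RPKM in cell 9, and was at 0 in 9. Both genes were detected in 5 cells and at least 1 of them in 19. Of the remaining members, Syt9 was found in 5 cells, Syt6 in 3 and Syt7 in 2, none above 42.6 RPKM. Syt9 and Syt2 are the other fast sensors beside Syt1. In the 3 cells without detected Syt1 (13, 17 and 29) both were at 0, so that 22 of 25 cells held at least 1 of these 3 genes.

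**Figure D2:**
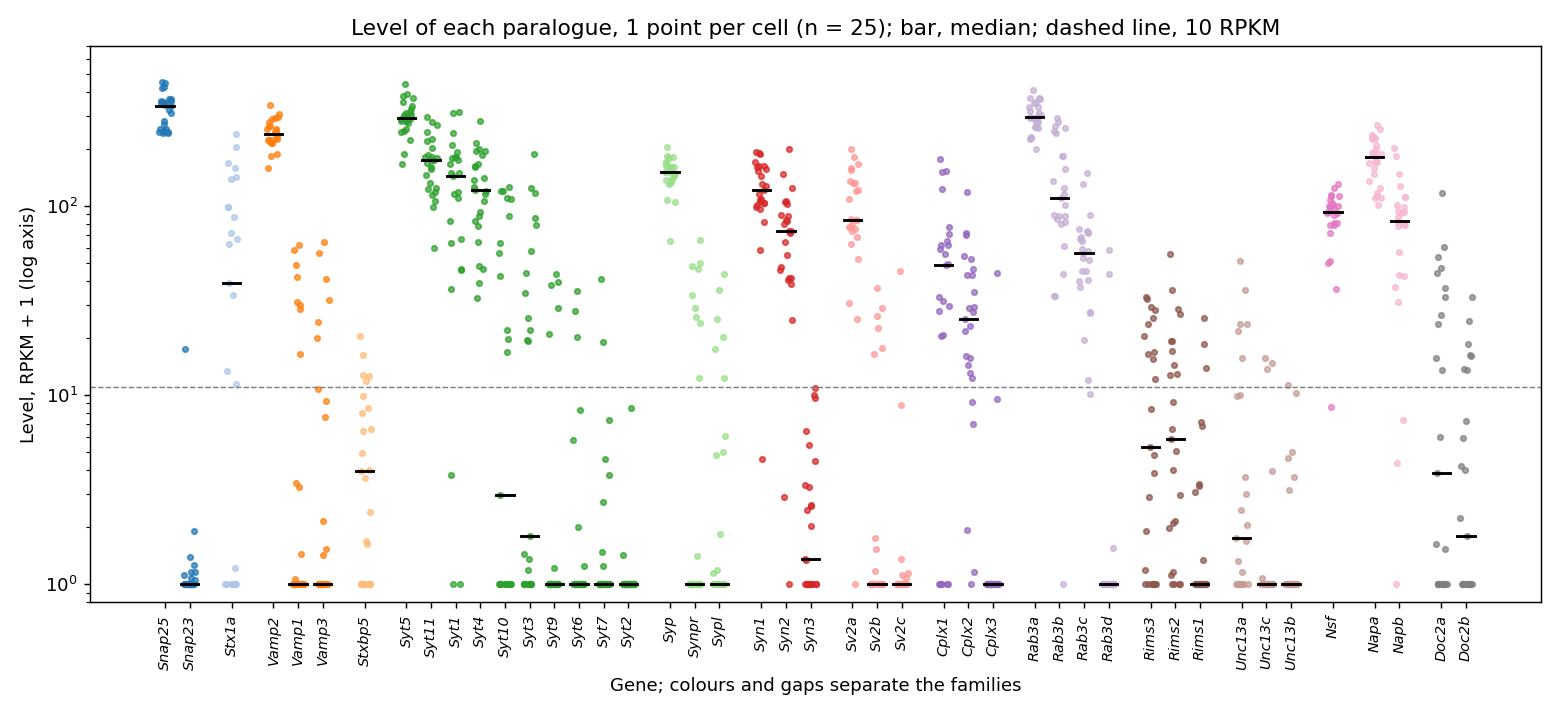
Level of each gene as RPKM + 1 on a log axis, with 1 point per cell (n = 25), a bar at the median and a dashed line at 10 RPKM; colours and gaps separate the families. Among the genes shown, each of the SNAP-25, VAMP, synaptophysin and Rab3 families has 1 leading gene that stays above the line in every cell. No RIM or Munc13 gene stays above it in every cell.

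Vesicle membrane proteins showed the same single leader in the synaptophysin and SV2 families. Syp encodes synaptophysin, an abundant vesicle protein that binds VAMP. It ranged from 64.3 RPKM in cell 1 to 204 RPKM in cell 43, with a median of 149 RPKM, and exceeded Synpr and Sypl in 25 of 25 cells. Synpr, encoding synaptoporin, was detected in 9 cells (7, 13, 14, 24, 29, 31, 32, 34 and 43) at 11.3 to 65.2 RPKM and was at 0 in 15. Sypl, a synaptophysin-like gene of many tissues, was detected in 6 cells, with 42.5 RPKM in cell 1, the cell with the least Syp. The SV2 genes encode vesicle glycoproteins that act in release. Sv2a was detected in 24 cells with a median of 83.5 RPKM, reached 198 RPKM in cell 34 and was at 0 in cell 2. Sv2b reached 10 RPKM in 6 cells, at most 35.8 RPKM, and led its family in cell 13 alone. Sv2c was detected in cell 29 alone, at 44.2 RPKM.

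The synapsins, which tether vesicles to each other and hold the reserve pool, were carried by a pair of genes. Syn1 had a median of 119.8 RPKM, between 3.55 RPKM in cell 43 and 191 RPKM in cell 5. Syn2 had a median of 72.4 RPKM and ranged from 0 in cell 27 to 198 RPKM in cell 31. Both were detected in 22 cells. Syn1 was the higher in 20 cells and Syn2 in 5 (9, 13, 31, 34 and 43), of which all but cell 13 are among the 5 cells of lowest estimated depth. Without those 5 shallow cells, Syn1 led in 95% of cells, against 80% of all 25. Over the cells, the level of Syn1 had r = 0.52 with estimated depth and that of Syn2 had r = -0.39 (n = 25); what depth contributes to the order of the pair was not tested.

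The start regions of this pair, taken from RefSeq, are shown because they are paralogues with overlapping levels; the 250 bases before each annotated start are given 5′ to 3′ on the strand of the gene (GRCm38.p6), with CG dinucleotides in capitals.
Syn1 (chrX:20920919-20921168, minus strand): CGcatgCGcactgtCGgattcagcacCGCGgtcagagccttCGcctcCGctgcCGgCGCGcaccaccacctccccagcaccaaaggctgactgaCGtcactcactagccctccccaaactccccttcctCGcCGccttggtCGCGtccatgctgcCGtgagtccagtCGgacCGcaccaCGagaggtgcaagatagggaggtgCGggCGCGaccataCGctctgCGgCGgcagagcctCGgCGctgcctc
Syn2 (chr6:115134652-115134901, plus strand): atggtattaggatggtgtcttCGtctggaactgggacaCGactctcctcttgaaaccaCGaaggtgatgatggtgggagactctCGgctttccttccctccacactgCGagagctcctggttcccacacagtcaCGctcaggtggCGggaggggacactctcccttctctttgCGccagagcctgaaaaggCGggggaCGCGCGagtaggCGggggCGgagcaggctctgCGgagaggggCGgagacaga
Syn1 held 27 CG and Syn2 16. The letters TGACGTCA, the full cyclic AMP response element, read on both strands, occurred before Syn1 and not before Syn2, and were present in 1.62% of the 27025 promoters of this length in the table. GGGCGG, the core that Sp1 binds, occurred on either strand before Syn2 and not before Syn1. Of the 44 genes, 34 had an entry. They held a median of 14 CG, with a range of 6 to 40, against 6 over all genes, and 26 of the 34 (76.5%) held GGGCGG, against 33.0% of all genes. This count and the CG count overlap, because the motif contains a CG. The values over all genes include genes not detected in these cells. The members were not compared with detected genes alone, so neither difference can be called particular to release genes. The 15 entries of genes detected in at least 13 cells had a median of 11 CG and the 19 entries of the other genes a median of 17. The start used for Syn1 lay 86 bases inside its gene in GENCODE M21, so part of its printed stretch is annotated there as transcribed. Distances from the GENCODE start were 68793 bases for Cplx2, 2565 for Syt11 and 790 for Rab3c, and at most 164 for the other entries.

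Rab3 proteins are small GTPases of the vesicle that recruit RIM at the release site, and 3 of the 4 genes were expressed together. Rab3a led in 25 of 25 cells, with a median of 293 RPKM between 198 RPKM in cell 29 and 409.8 RPKM in cell 9. Rab3b was detected in 24 cells with a median of 109 RPKM and was at 0 in cell 7. Rab3c was also detected in 24 cells, with a median of 55.1 RPKM and a range of 9.15 (cell 34) to 147 RPKM (cell 24). Rab3d, known from exocrine and other secretory cells, was found in cells 5 and 9 alone, at 57.4 and 42.7 RPKM. The median log2 ratio of Rab3a was 1.24 to Rab3b (quartiles 0.34 and 1.95) and 2.35 to Rab3c (quartiles 2.13 and 2.89). Rab3b exceeded Rab3c in 20 cells and stood within 1.5-fold of Rab3a in 7.

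Rab3b was high in most cells that had the dopamine synthesis gene Th, which encodes tyrosine hydroxylase; this relation was picked after its values were seen. In the 8 cells with Th at 10 RPKM or more, Rab3b ranged from 134 to 292 RPKM with a median of 244 RPKM, whereas in the other 17 cells it ranged from 0 to 258 RPKM with a median of 86.7 RPKM. The ranges overlap through cells 5 and 14. Of the 8 cells highest in Rab3b, 7 had Th (3, 12, 26, 15, 8, 11 and 1), and the exception was cell 5, at 258 RPKM. Rab3a had nearly the same median in both sets, 294 RPKM in the cells with Th and 291 RPKM in the other cells, and Rab3c had 50.4 RPKM in the cells with Th and 55.1 RPKM in the other cells. Since the cells come from 1 pool, these differences carry no test. Of the 6 cells low in the nuclear RNA Malat1, cells 1 and 3 had Th, and without these 6 cells Rab3b was 134 to 277 RPKM in 6 cells with Th and 0 to 155 RPKM in the other 13. Syt10 was likewise found in 6 of the 8 cells with Th and 6 of the other 17, while Synpr was found in 1 of the 8 and 8 of the other 17.

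**Figure D3:**
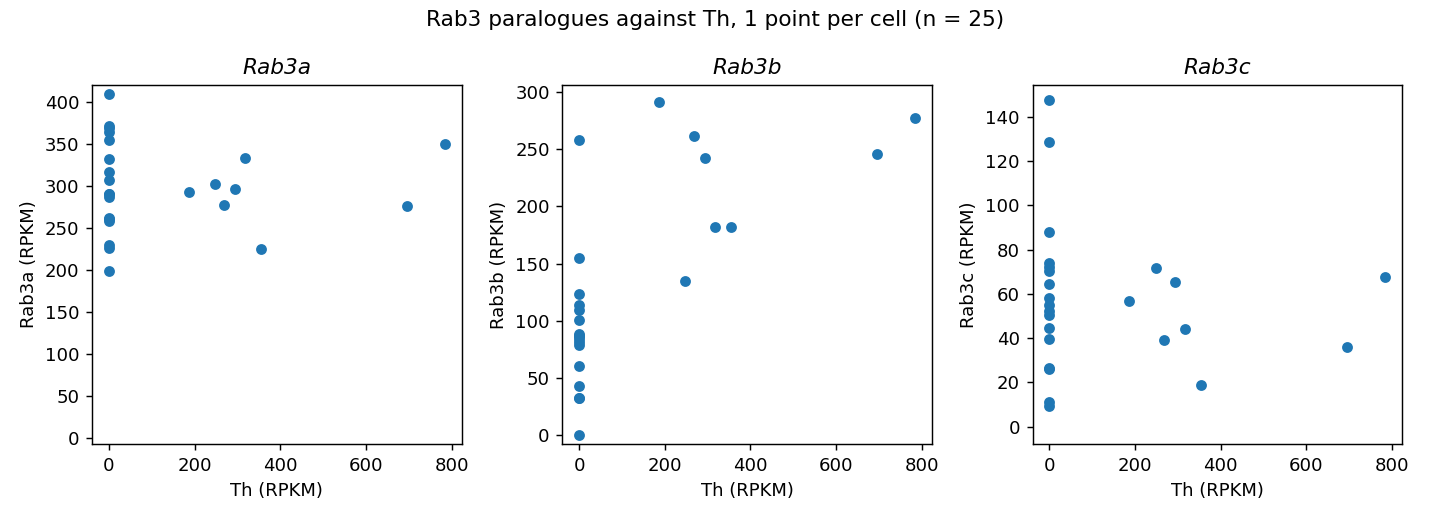
Level of Rab3a, Rab3b and Rab3c (vertical axes, RPKM) against Th (horizontal axis, RPKM), with 1 point per cell (n = 25). All 8 cells with Th lie at 134 RPKM or more of Rab3b, above 15 of the other 17 cells, while their Rab3a and Rab3c levels lie within the range of the other cells.

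The start regions of Rab3a and Rab3b from RefSeq are shown in the same way because Rab3a was even over the cells and Rab3b was not.
Rab3a (chr8:70754453-70754702, plus strand): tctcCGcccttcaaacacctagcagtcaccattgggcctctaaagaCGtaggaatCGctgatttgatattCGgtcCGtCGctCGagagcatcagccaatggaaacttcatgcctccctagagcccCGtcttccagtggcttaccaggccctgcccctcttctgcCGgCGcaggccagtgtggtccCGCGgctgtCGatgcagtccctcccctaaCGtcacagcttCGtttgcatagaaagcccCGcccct
Rab3b (chr4:108878820-108879069, plus strand): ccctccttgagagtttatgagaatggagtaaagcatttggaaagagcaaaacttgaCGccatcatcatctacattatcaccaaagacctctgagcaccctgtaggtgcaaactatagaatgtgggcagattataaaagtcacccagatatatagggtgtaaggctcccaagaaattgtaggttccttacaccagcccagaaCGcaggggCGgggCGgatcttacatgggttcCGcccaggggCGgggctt
Rab3a held 16 CG and Rab3b 6. GGGCGG was found on either strand before both genes, and TGACGTCA before neither. The starts used lay 24 bases inside the Rab3a gene and 7 inside the Rab3b gene of GENCODE M21.

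The priming genes downstream of Rab3 were low and uneven. Some RIM proteins bind Rab3 and organise calcium channels at the active zone, and no RIM gene led. Rims3 was detected in 11 cells (highest 32.0 RPKM, cell 24), Rims2 in 10 (highest 54.3 RPKM, cell 10) and Rims1 in 3 (highest 24.6 RPKM, cell 32). Rims2 was the highest of the 3 in 12 cells, Rims3 in 10 and Rims1 in 1, and 23 cells had some RIM value above 0. Munc13 proteins open syntaxin for SNARE assembly. Unc13a was detected in 6 cells, at most 49.8 RPKM in cell 25, Unc13c in 3 and Unc13b in 1 (10.2 RPKM, cell 27). In total 20 cells listed a Munc13 gene above 0 and 9 reached 10 RPKM, and 5 cells reached it for neither a RIM nor a Munc13 gene. These genes are long, and 10 RPKM, a level already divided by length, corresponds to 231 reads of Unc13a, 417 of Unc13b and 190 of Rims2 at the median depth. Across the 44 genes, exon length and median level had a Spearman rho of -0.33, a description over genes that are not independent of each other. The part of gene length in the low levels was not tested.

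Complexin genes were detected in 22 of 25 cells, mostly as a pair. Cplx1 was detected in 19 cells with a median of 47.4 RPKM and was at 0 in 6. Cplx2 was detected in 20 cells with a median of 24.3 RPKM. Both were detected in 17 cells, Cplx1 was the higher in 15 and Cplx2 in 9, and cells 24, 25 and 43 held neither at 10 RPKM. The log2 ratio of Cplx1 to Cplx2 had a median of 0.37 with quartiles of -0.21 and 1.36, so their order did not hold beyond the spread over cells. Over the 25 cells their levels had r = 0.55 and rho = 0.55. The 3 cells highest in Cplx1 were cells 7, 31 and 27, at 176, 151 and 149 RPKM, and cells 7 and 27 are the 2 cells that express the vesicular glutamate transporter Slc17a6 (149 and 20.7 RPKM), an overlap noticed after the values were seen. Cell 31 had the highest Cplx2, at 117 RPKM. Cplx3, the complexin of retinal ribbon synapses, was detected in cell 27 alone, at 42.8 RPKM. Doc2 proteins are calcium sensors of spontaneous release. Doc2a was detected in 11 cells, at most 115 RPKM in cell 7, Doc2b in 7, at most 31.8 RPKM in cell 15, and both in 2 cells. Doc2a shares 39.3% of its exon bases with Ino80e on the opposite strand, and the libraries do not mark strand, so reads of these genes cannot be told apart there.

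The genes that take the SNARE complex apart were detected in most cells. Nsf, the ATPase that takes the complex apart, had a median of 91.9 RPKM, a maximum of 129 RPKM in cell 31 and its only value below 10 RPKM in cell 25, at 7.63 RPKM. Napa, encoding alpha-SNAP, was in all cells, from 99.6 RPKM in cell 43 to 268 RPKM in cell 9 with a median of 179 RPKM. Napb, encoding the brain-enriched beta-SNAP, was detected in 22 cells with a median of 81.9 RPKM, from 0 in cell 10 to 200.3 RPKM in cell 7. Napa was the higher in 23 cells, and Napb in cells 7 and 11. The log2 ratio of Napa to Napb had a median of 1.00, with quartiles of 0.43 and 2.14.

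The leading genes of several families varied little. The coefficient of variation over cells was 16.9% for Vamp2, 17.6% for Rab3a, 19.4% for Syp, 20.7% for Syt5 and 20.98% for Snap25. Among the 804 genes detected in all 25 cells the median was 33.2%, and Vamp2 had the 12th lowest value. Syt4 stood at the other end of the same set, with 49.4% and more variation than 90.3% of these genes. The evenness of the highest members has to be read beside a limit of the values. The 50 highest genes per cell averaged 0.548 to 0.937 reads per base, and their mean level had r = -0.88 with estimated depth (n = 25 cells, rho -0.87). Snap25, Syt5 and Rab3a stood at a median of 0.547, 0.554 and 0.539 reads per base, and Rab3a had r = -0.72 with depth, Syt5 -0.38 and Snap25 -0.30. Vamp2, at 0.406 reads per base, had r = 0.02. Whether the highest levels were compressed, which would make both folds between high genes and spreads over cells too small, was not tested.

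**Figure D4:**
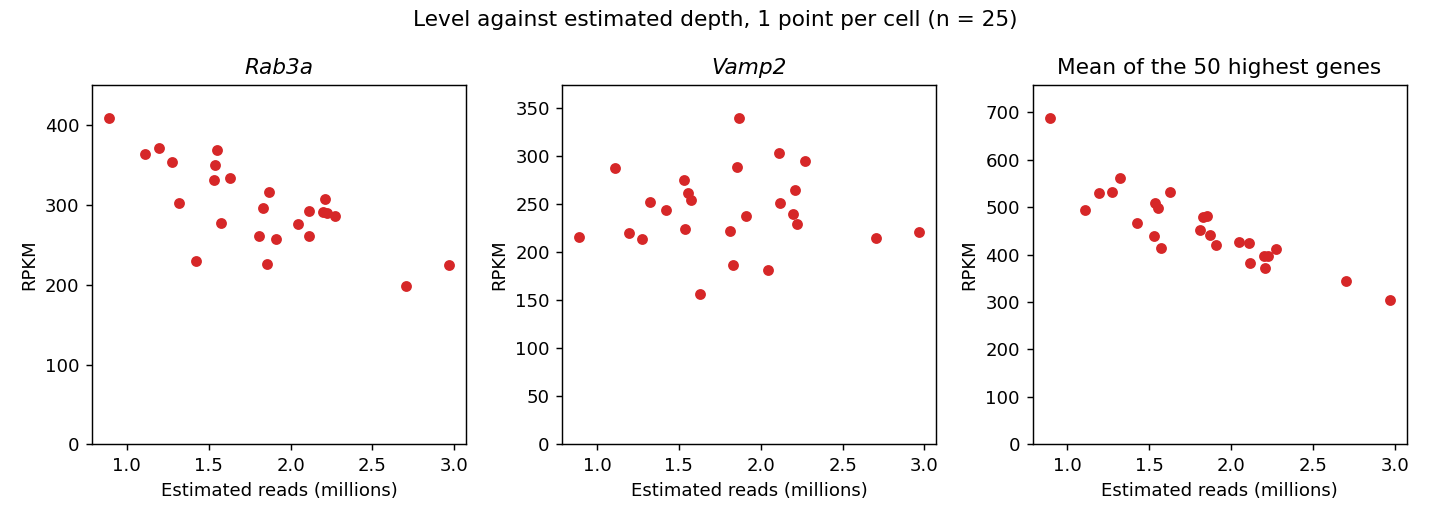
Level in RPKM of Rab3a, of Vamp2 and of the mean of the 50 highest genes (vertical axes, from 0) against estimated reads, with 1 point per cell (n = 25). Rab3a and the 50 highest genes are lower in deeper cells, with r of -0.72 and -0.88, and Vamp2 shows no such slope, with r of 0.02.

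As a set, the release genes showed no shared rise and fall over the cells. Over the 19 genes detected in at least 13 cells, the mean of the 171 pairwise correlations of log2(RPKM + 1) was 0.0043, against 0.0103 over all 4180 genes in that class. Of these pairs, 78 were positive and 93 negative. The highest values were r = 0.59 for Syt5 with Rab3c, 0.55 for Cplx1 with Cplx2, 0.53 for Vamp2 with Syp and 0.53 for Syt4 with Syn1, and the lowest was -0.43 for Vamp2 with Syn2. All share the same 25 libraries, and with so many pairs none of these values singles out a pair. The number of members detected per cell had r = 0.48 with the number of all genes detected and r = 0.13 with estimated depth.

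For the 4 members with the largest SD of log2(RPKM + 1) among those in 4 to 21 cells, the nearest genes over the cells were sought among 8896 others. Stx1a was nearest to Foxred2, Ap2a2 and Gpaa1 (r = 0.78, 0.73 and 0.68), Syt3 to Apbb2, Pdcd2l and Mtmr3 (0.80, 0.75 and 0.66), Cplx1 to Slc25a51, Elp2 and Cyb561 (0.75, 0.73 and 0.71), and Syt10 to Snrnp35, Usp3 and Bcl11a (0.65 each). Ap2a2, a subunit of the clathrin adaptor that retrieves vesicles, is the only one of these 12 genes that is also on the lists of release and recycling genes.

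Other genes of the pathway were examined as lists. Of 48 further fusion and active zone genes in the table, 23 were detected in at least 13 cells, 5 in every cell and 6 in none, with a median of 24 per cell. Snap47, a SNAP-25 relative outside the listed pair, was in every cell at a median of 362 RPKM and exceeded Snap25 in 18 cells. It shares 11.6% of its exon bases with Jmjd4 on the opposite strand. The vesicle proteins Syngr3 and Syngr1 (258 and 80.0 RPKM) and the endosomal syntaxin Stx7 (73.9 RPKM) were also in every cell. Scamp5 (139 RPKM), the vesicle chaperone Dnajc5 (91.9 RPKM) and Scamp1 (43.9 RPKM) were in 24. Vamp8, Syt8, Sypl2 and the retinal complexin Cplx4 were at 0 in all cells. Of 18 vesicle recycling genes, 14 were detected in at least 13 cells and 7 in every cell. The clathrin adaptor subunits Ap2s1, Ap2m1 and Ap2a1 (285, 259 and 48.1 RPKM), the clathrin light chains Clta and Cltb (153 and 78.0 RPKM), Amph, which encodes amphiphysin (56.9 RPKM), and the vesicle-cutting GTPase Dnm1 (61.3 RPKM) were in all 25 cells, and Bin1 (113 RPKM) in 24. The scaffold gene Itsn1 and the clathrin assembly gene Picalm were detected in 1 cell each, and were picked for mention after their values were seen.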

How the data were processed

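The values the authors deposited were taken as RPKM, although the table is named for counts: they are decimals, and low values times exon length fall on steps of whole reads. The submitters' processing notes name featureCounts 1.4.6, TopHat2 2.0.14, SAMtools 0.1.19, Picard 2.5.0 and bcl2fastq, with GRCm38 and mm10 as builds. Roles of these tools, the annotation and any removal of duplicate reads: not given in the sources used here. Per the labels' protocols, libraries were made with Smart-Seq2 and Nextera XT, which mark no strand and carry no molecular identifiers.

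Of 33082 rows, 26 with names turned into date numbers were left out, and for 755 repeated symbols, Rims1 and Vamp1 among them, only the row of highest sum was used. Exon lengths came from GENCODE M21 (GRCm38) and may differ from the authors'. Value times length summed to 1.38 to 1.47 times the total expected, so read numbers are estimates. Depth was read from the steps of 1, 2 and 3 reads, and the step finder was off by at most 0.547% on 12 simulated cells of 22754 genes. Shares carry exact Clopper-Pearson intervals. Log2 values use a pseudocount of 1 RPKM. Exons of 13 members overlap another gene on the opposite strand, over 10% of their length for Doc2a, Syp, Syt4 and Syn3.

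The members and lists were chosen with earlier results of these data known. Named were all members, the leading gene of each family, the 4 members in 4 to 21 cells with the largest SD of log2 values with their 3 nearest genes, and of each further list up to 8 frequent and 4 undetected genes; 1 gene the rule would name is not reported here. The plan to print protein sequences was not carried out, and promoters of paralogues were added after the values were seen. Alternatives were other detection levels, other pseudocounts, rescaled cells, summed rows, and leaving out cells low in Malat1 or shallow. Analyses used Python 3.11.15, pandas 2.3.3, NumPy 2.4.6, SciPy 1.17.1 and matplotlib 3.10.9.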

Additional observations from a re-analysis of the deposited data

How the results depend on the processing

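Detection counts stayed within 1.5-fold of those reported at 5 RPKM, 20 RPKM, any value above 0 and 10 estimated reads: the number of members found in at least 13 cells was 19 to 28, in every cell 8 to 11, and per cell 21 to 29 at the median. No leading gene changed its share of cells by over 1.5-fold without the 6 cells low in Malat1 or the 5 shallowest cells. Of 145 alternative values of 29 paralogue ratios, 121 moved by less than the SD over cells and 24 by more. All but 3 of these 24 set a leader against a paralogue at or near 0 in most cells under another pseudocount, such as Snap25 to Snap23 (log2 ratio 8.13, with 11.4 and 5.99 at pseudocounts of 0.1 and 5 RPKM), which is why such ratios are given as counts of cells. The mean pairwise correlation stayed between -0.011 and 0.014. The correlation of members detected with depth turned from 0.13 to -0.085 without the 2 cells farthest from the median depth; the cause was not tested. The Rab3b difference between cells with Th and other cells was 151 to 163 RPKM in every alternative tried, all chosen after seeing the data. No paired analysis was possible because the cells form 1 group. Genes near 10 RPKM rest on the fewest reads in the shallowest cell, cell 9. It held 22 members at 10 RPKM or more, against a median of 23 over the cells. What depth contributes to detection was not tested.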
